A study of Arabidopsis thaliana with 12 samples.

Results

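The 6 genes described here belong to the expansin superfamily of Arabidopsis thaliana. They are the α-expansins EXPA4 (AT2G39700), EXPA8 (AT2G40610) and EXPA15 (AT2G03090), the β-expansin EXPB3 (AT4G28250), and the expansin-like A genes EXLA1 (AT3G45970) and EXLA2 (AT4G38400). They were taken by name, as genes with an annotated probe set on the array, and were proposed with earlier results of these data known. Each has 1 probe set that is annotated to no other gene, so they are 6 of 13286 genes with a probe set of their own and 6 of the 22746 probe sets tested.

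Expansins are small secreted proteins that loosen plant cell walls without cutting the wall polymers. α-Expansins act best in an acidified wall and let cellulose and xyloglucan slide past each other under turgor, which makes them part of how leaf and stem cells enlarge. β-Expansins form a related group that is known best for the pollen allergens of grasses. The expansin-like groups share the fold of both, but no wall-loosening activity has been established for them. EXLA2 is known in Arabidopsis for mutants with altered resistance to necrotrophic fungi.

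Transcript levels were measured in the whole aerial part of soil-grown plants on 12 arrays, in 4 groups of 3 biological replicates. The genotypes were wild-type Col-0 and the mutant sid2-1 in the Col-0 background, each kept at 22 °C or harvested after a further 3 weeks at 4 °C. All plants had about 23 days at 22 °C and a 12 h photoperiod, and the labels place the harvest 4 h after lights on. The mutant sid2-1 has a lesion in the isochorismate synthase gene ICS1, which is needed for most pathogen-induced salicylic acid. Plants of the cold groups were older by the 3 weeks of treatment, so that temperature and age cannot be told apart. How many plants made a replicate is not stated, and a mark in brackets in the titles of the warm wild-type samples is left unexplained.

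Array medians lay between 4.39 and 4.47 on the log2 scale, and replicates correlated across probe sets at 0.978 to 0.990. The leaf genes RCA (13.16 to 14.01) and LHCB4.2 (12.02 to 13.49) gave high log2 signals on all 12 arrays, and the root gene PYK10 stayed at 2.2 to 2.37, where 2.2 is the lowest value of the table. ICS1 was not analysed here, so the genotype labels were not checked against the mutated gene. The cold treatment was visible in LTI30, a dehydrin of cold-acclimated plants, which rose 70.4-fold in wild type and 87.6-fold in sid2-1. In tissue of many cell types, fewer cells of a type and less RNA per cell cannot be told apart.

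The first question was how the 6 genes responded to 3 weeks in the cold. Over both genotypes, EXPA8 fell 5.19-fold, EXPB3 4.06-fold and EXPA4 2.75-fold, whereas EXLA1 rose 3.51-fold. The EXPB3 fold rests on cold signals that mostly lay below the array medians. EXLA2 was called higher in sid2-1 and for the mean of both genotypes, not in wild type (adjusted p = 0.630), and its fold depends on a low value that recurs over arrays. Its call for the mean of both was lost with a replicate block (adjusted p = 0.0602) and held in 3 of 12 fits without 1 array. EXPA15 did not pass the test. The values below are log2 signals, on which a difference of 1 is 2-fold, and a gene is called where limma gave an adjusted p under 0.05 over all 22746 probe sets.

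**Figure D1:**
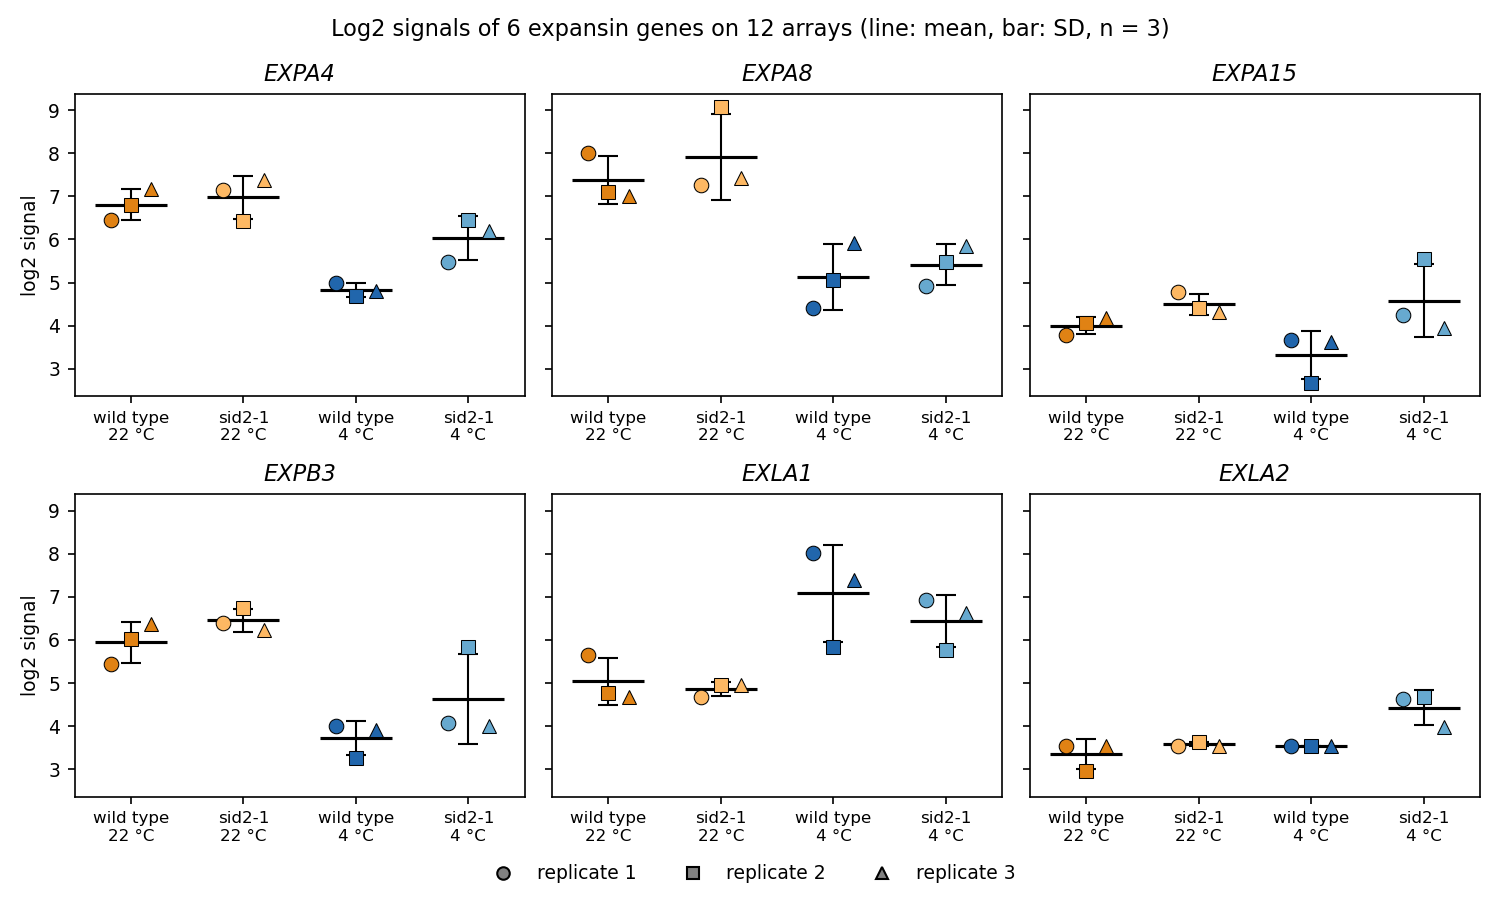
Log2 signal of the 6 genes on each of the 12 arrays, by group, with the marker shape giving the replicate number, the line the mean and the bar the SD (n = 3). The cold groups lie below the warm groups in EXPA8 and above them in EXLA1 with no overlap, and EXLA2 stands at 3.55 on all 3 wild-type arrays at 4 °C.

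EXPA8, an α-expansin, stood at 8.01, 7.11 and 7.0 in wild type at 22 °C and at 4.40, 5.06 and 5.92 at 4 °C. In sid2-1 it stood at 7.27, 9.07 and 7.42 at 22 °C and at 4.92, 5.48 and 5.85 at 4 °C. All 6 warm arrays thus lay above all 6 cold arrays, with replicate 2 of sid2-1 at 22 °C highest. The log2 change was -2.25 ± 0.57 (SE, adjusted p = 0.0349) in wild type and -2.50 ± 0.57 (adjusted p = 0.0379) in sid2-1, so that it was the single member called in each genotype. Over both genotypes the fall was 2.38 ± 0.40 on the log2 scale (adjusted p = 0.00410), and 261 of all probe sets had a larger absolute change. Its group means fell in the order 7.92 for sid2-1 and 7.37 for wild type at 22 °C, then 5.42 for sid2-1 and 5.13 for wild type at 4 °C, and neighbours of the same temperature did not differ beyond their spread.

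EXPA4, another α-expansin, stood at 6.45, 6.81 and 7.17 in wild type at 22 °C and at 4.99, 4.68 and 4.81 at 4 °C. In sid2-1 the values were 7.15, 6.42 and 7.38 at 22 °C and 5.47, 6.46 and 6.20 at 4 °C. Wild type separated by temperature with a wide gap, whereas in sid2-1 the highest cold value of 6.46 lay just above the lowest warm value of 6.42. The log2 change was -1.98 ± 0.32 (SE, adjusted p = 0.00581) in wild type, a 3.95-fold fall, and -0.94 ± 0.32 (adjusted p = 0.137) in sid2-1. The interval of the sid2-1 change ran from -1.67 to -0.21. By group mean, sid2-1 (6.98) and wild type (6.81) at 22 °C did not differ beyond their spread, followed by sid2-1 (6.04) and wild type (4.83) at 4 °C, whose values did not overlap.

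EXPB3, the β-expansin, stood at 5.44, 6.03 and 6.37 in wild type at 22 °C and at 4.00, 3.27 and 3.91 at 4 °C. In sid2-1 it stood at 6.40, 6.74 and 6.23 at 22 °C and at 4.07, 5.83 and 4.00 at 4 °C. The groups of each genotype did not overlap, and replicate 2 of sid2-1 at 4 °C lay closer to the warm arrays than to its own group. Except for that array at 5.83, the cold values lay below the array medians of 4.39 to 4.47. The size of the fall may thus depend on the background correction. The fall was called in wild type, with a log2 change of -2.22 ± 0.49 (SE, adjusted p = 0.0196), and missed the threshold in sid2-1 at -1.82 ± 0.49 (adjusted p = 0.0644). Without replicate 2 of sid2-1 at 4 °C the change in sid2-1 was -2.42 ± 0.31 with an adjusted p of 0.00808, and without replicate 2 of wild type at 4 °C the change in wild type was -1.99 ± 0.55 with an adjusted p of 0.0696. Its group means ran from sid2-1 (6.46) and wild type (5.95) at 22 °C to sid2-1 (4.63) and wild type (3.73) at 4 °C, and neither pair of genotypes differed beyond its spread.

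EXPA15, the third α-expansin, gave signals of 2.68 to 5.55, where the array medians were 4.39 to 4.47. All its wild-type values lay below these medians, so the size of any difference that involves them may depend on the background correction. Its values were 3.78, 4.05 and 4.17 in wild type at 22 °C and 3.66, 2.68 and 3.63 at 4 °C, which do not overlap. In sid2-1 they were 4.77, 4.40 and 4.32 at 22 °C and 4.24, 5.55 and 3.95 at 4 °C, which do overlap, with replicate 2 at 4 °C above all other arrays. The log2 change was -0.68 in wild type, with a 95% interval of -1.63 to 0.28 (adjusted p = 0.383), and 0.08 in sid2-1, with an interval of -0.87 to 1.04 (adjusted p = 1). Changes of up to about 1 in either direction are therefore within the precision of the sid2-1 value. Its group means were 4.58 in sid2-1 at 4 °C, 4.50 in sid2-1 at 22 °C, 4.00 in wild type at 22 °C and 3.32 in wild type at 4 °C, and of these neighbours only the last pair and the middle pair had values that did not overlap.

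EXLA1, an expansin-like gene, went the other way. It stood at 5.66, 4.77 and 4.68 in wild type at 22 °C and at 8.01, 5.84 and 7.39 at 4 °C. In sid2-1 it stood at 4.67, 4.95 and 4.95 at 22 °C and at 6.93, 5.76 and 6.62 at 4 °C. All 6 cold arrays lay above all 6 warm arrays, and replicate 2 was the lowest of the cold arrays in each genotype. The rise was called in wild type, with a log2 change of 2.04 ± 0.55 (SE, adjusted p = 0.0425), and was 1.58 ± 0.55 in sid2-1 (interval 0.33 to 2.83, adjusted p = 0.141). Without replicate 2 of wild type at 4 °C the change was 2.66 ± 0.41 in wild type (adjusted p = 0.00981) and 1.58 ± 0.37 in sid2-1 (adjusted p = 0.0493). The group means were 7.08 in wild type and 6.44 in sid2-1 at 4 °C, and 5.04 in wild type and 4.86 in sid2-1 at 22 °C, and the genotypes overlapped at each temperature.

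EXLA2, the second expansin-like gene, was at a value that recurs, since 3.55 was read on 7 of the 12 arrays. It stood at 3.55, 2.95 and 3.55 in wild type at 22 °C and at 3.55 on all 3 wild-type arrays at 4 °C. In sid2-1 it stood at 3.55, 3.63 and 3.55 at 22 °C and at 4.64, 4.68 and 3.97 at 4 °C. The 3 mutant arrays at 4 °C, at 3.97 or more, lay above all 9 others, the highest of which was 3.63. The log2 change was 0.85 ± 0.21 in sid2-1 (SE, adjusted p = 0.0489) and 0.20 in wild type, with a 95% interval of -0.28 to 0.68 (adjusted p = 0.630). The size and the SE of this rise depend on the background correction that sets the recurring value. By group mean, the cold mutant arrays (4.43) stood above the warm mutant arrays (3.58), the cold wild-type arrays (3.55) and the warm wild-type arrays (3.35), and the last 3 overlapped.

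**Figure D2:**
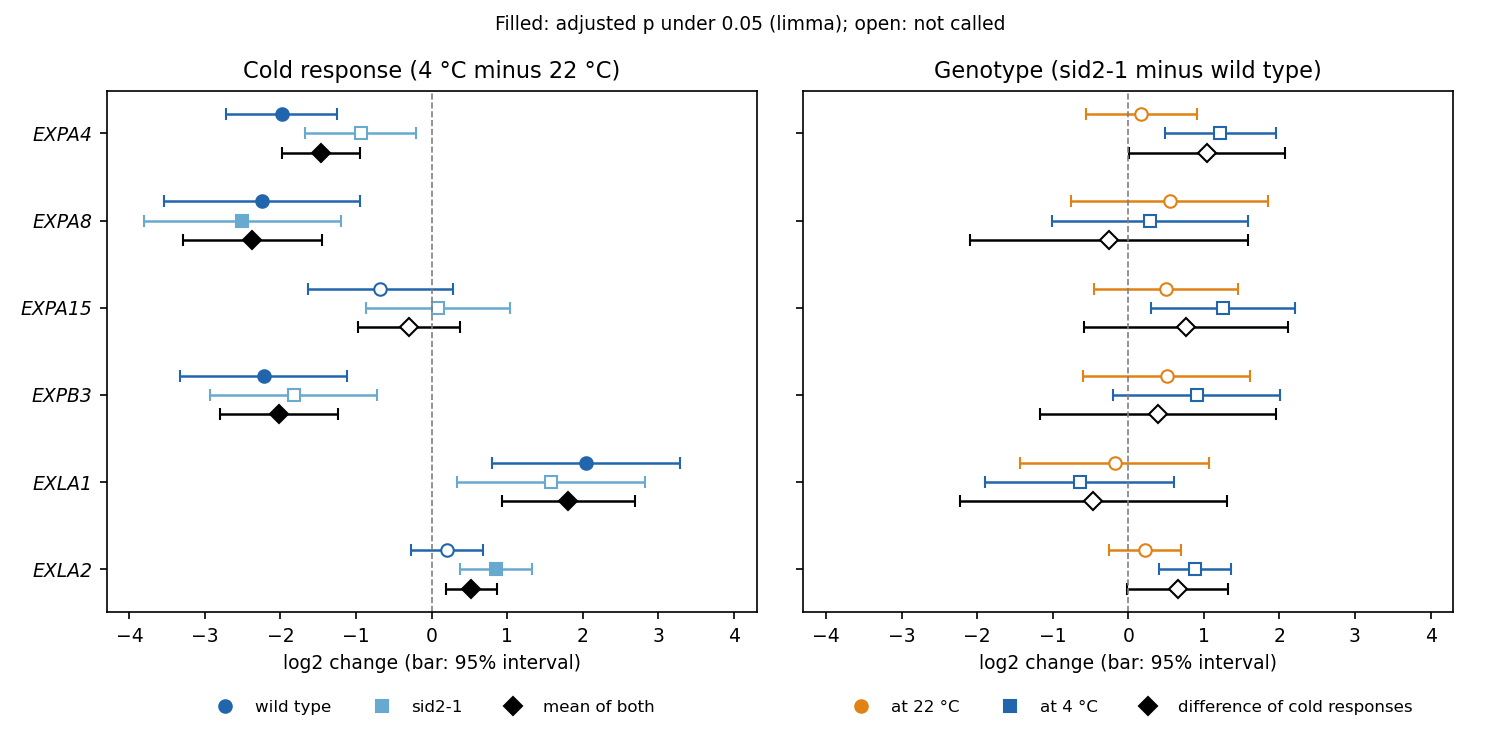
Log2 changes of the 6 genes in limma's fit, with 95% intervals. The left panel shows the cold response in wild type, in sid2-1 and as the mean of both, and the right panel sid2-1 minus wild type for each temperature, with the contrast of their cold responses. Filled markers have an adjusted p under 0.05, and all markers of the right panel are open.

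In wild type 4 of the 6 genes were called, 3 lower and 1 higher, where 13% of all probe sets were called, 6.19% lower and 6.81% higher. In sid2-1 the count was 2 of 6, with EXPA8 lower and EXLA2 higher, where 6.28% of all probe sets were called, 3.08% lower and 3.2% higher. For the mean of both genotypes, 5 of 6 were called, 3 lower and 2 higher, against 20.5% of all probe sets, 9.94% lower and 10.5% higher. The groups did not overlap in 5 of 6 genes in wild type (28.5% of all probe sets) and in 4 of 6 in sid2-1 (21.9%). All 6 warm and 6 cold arrays were separate in EXPA8 and EXLA1, 2 of 6, where this held for 11.9% of all probe sets. The median log2 change of the 6 was -1.33 in wild type and -0.43 in sid2-1, and the median over all probe sets was 0.00 in each. Since the genes were proposed with results of these data known, these counts describe them and test nothing. With 3 arrays against 3, an exact permutation test of a single gene cannot go below a two-sided p of 0.1, so the calls rest on limma's normal model and on each gene's own spread pooled over the 4 groups. The prior that limma shares between probe sets added 0.609 degrees of freedom to 8.

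**Figure D3:**
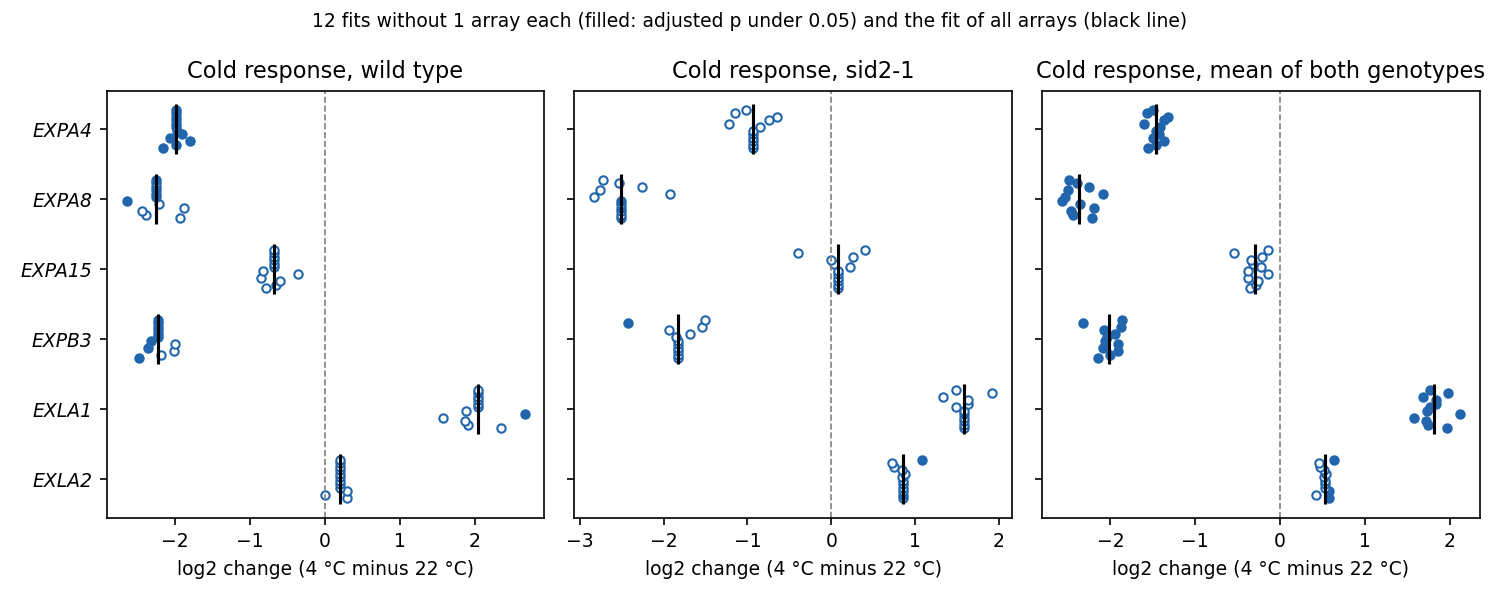
Cold response of the 6 genes (log2 change, 4 °C minus 22 °C) in wild type, in sid2-1 and as the mean of both, in 12 fits that each leave out 1 array. The black line is the fit of all arrays, and filled points have an adjusted p under 0.05. EXPA4 in wild type is called in all 12 fits, and EXLA1 in wild type in 2 of 12.

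The calls in single genotypes differed in how far they rested on 1 array. In wild type EXPA4 was called in all 12 fits that leave out 1 array, with log2 changes from -2.16 to -1.80, EXPB3 in 9 of 12, EXPA8 in 6 of 12 and EXLA1 in 2 of 12. In sid2-1 EXPA8 was called in 3 of 12 fits, with log2 changes from -2.83 to -1.93, and EXLA2 in 2 of 12, with 0.73 to 1.08. For the mean of both genotypes, EXPA4, EXPA8, EXPB3 and EXLA1 were called in all 12 fits, and EXLA2 in 3 of 12 with changes from 0.43 to 0.64. In wild type EXPB3 lost its call without replicate 2 or 3 at 22 °C or replicate 2 at 4 °C of wild type. EXPA8 lost it there without any warm wild-type replicate, without replicate 1 or 2 of the cold wild type, or without replicate 2 of the cold mutant. EXLA1 kept it there without replicate 2 of either cold group and in no other fit. In sid2-1 EXPA8 kept its call without replicate 1 of the warm wild type or without replicate 1 or 3 of the cold wild type. EXLA2 kept it in sid2-1 without replicate 2 of the warm wild type or replicate 3 of the cold mutant. The highest adjusted p over the 12 fits was 0.110 for EXPA8, 0.0696 for EXPB3 and 0.128 for EXLA1 in wild type, and 0.109 for EXPA8 and 0.137 for EXLA2 in sid2-1. No cold response of EXPA4, EXPA8, EXPB3 or EXLA1 changed its sign in these fits.

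The members also varied more between replicates than most probe sets. This comparison includes dim probe sets whose low values repeat, since 13005 of the 22746 reached a group mean of 4 or more. The residual SD of EXPA8 was 0.73, larger than that of 97.7% of probe sets, and that of EXLA1 was 0.70, larger than that of 97.3%. EXPA4 had 0.41 and EXLA2 0.27, against a median of 0.22 over all probe sets. Replicate 2 of sid2-1 at 4 °C held the highest of the 3 values for EXPA4, EXPA15, EXPB3 and EXLA2 and the lowest for EXLA1. Replicate 2 of wild type at 4 °C held the lowest for EXPA4, EXPA15, EXPB3 and EXLA1. Replicate 1 of wild type at 4 °C held the highest value of the same 4 genes, and EXPA8 had its middle value on both replicate 2 arrays. These counts have no test.

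Markers of other tissues were set beside these responses. Of the leaf genes, LHCB4.2 and RCA fell in the mean cold response by 0.81 and 0.52 on the log2 scale (adjusted p = 0.00948 and 0.00677). Of the pollen list, TUA1, an α-tubulin that is strong in pollen, rose by 0.59 ± 0.17 (adjusted p = 0.0416) on arrays where it ranged from 7.09 to 8.21. That call held in 3 of the 12 fits without 1 array (highest adjusted p = 0.0943), those without replicate 1 of either warm group or replicate 2 of the cold mutant. AT5G45880 ranged from 3.37 to 3.91. The guard cell regulator FMA ranged from 3.15 to 4.38 with a mean cold change of -0.19 ± 0.17, and PYK10 lay at or near the lowest value throughout. The part of these shifts in the expansin values was not tested.

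The second question was whether sid2-1 differed from wild type. At 22 °C none of the 6 genes was called by limma and none had an unadjusted p under 0.05, where 0.0044% of all probe sets were called and 3.03% had such a p. The log2 differences of sid2-1 from wild type ran from -0.18 ± 0.55 for EXLA1 to 0.55 ± 0.57 for EXPA8. EXPA15 was the single member whose warm groups did not overlap, at 4.32 or more in sid2-1 and 4.17 or less in wild type, with a difference of 0.50 (interval -0.46 to 1.45). Groups that do not overlap made up 4.93% of all probe sets in this comparison.

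At 4 °C the mutant had the higher mean in 5 of the 6 genes, and no difference passed the test. EXPA15 differed by 1.26 (interval 0.30 to 2.21, adjusted p = 0.368), EXPA4 by 1.22 (0.48 to 1.95, adjusted p = 0.228), EXPB3 by 0.91 (-0.20 to 2.01, adjusted p = 0.625), EXLA2 by 0.88 (0.40 to 1.36, adjusted p = 0.165) and EXPA8 by 0.29 (-1.01 to 1.59, adjusted p = 1). EXLA1 was the exception at -0.64 (interval -1.89 to 0.60, adjusted p = 0.775). The cold wild-type values of EXPA15, EXPB3 and EXLA2 all lay below the array medians, those of EXLA2 at 3.55 on each of the 3 arrays. For these genes the size of the difference, and for EXLA2 its SE and interval, may depend on the background correction. For EXPA4, EXPA15 and EXLA2, 3 of 6, the mutant arrays all lay above the wild-type arrays, where groups did not overlap in 11% of all probe sets and in 4.88% with sid2-1 higher, and the same 3 had an unadjusted p under 0.05, where 9.83% of all probe sets did. Of all probe sets limma called 0.615%, with 0.0132% higher and 0.602% lower in sid2-1. Without replicate 3 of sid2-1 at 4 °C, EXLA2 was called higher in the mutant (1.11 ± 0.16, adjusted p = 0.0328), which was the single call of a member in this comparison in the 12 fits. The cold difference of EXPB3 was 0.31 ± 0.31 without replicate 2 of sid2-1 and that of EXPA15 was 0.77 ± 0.31.

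The third question was whether the cold responses themselves differed between the genotypes. EXPA4 fell in wild type and had a smaller mean change in sid2-1, with a limma estimate of 1.04 ± 0.46 for the difference of the responses (interval 0.0064 to 2.08). Its p was 0.0489 before and 0.936 after adjustment. The difference was 0.76 for EXPA15 (-0.59 to 2.11), 0.65 for EXLA2 (-0.02 to 1.33), 0.40 for EXPB3 (-1.17 to 1.96), -0.26 for EXPA8 (-2.10 to 1.58) and -0.46 for EXLA1 (-2.23 to 1.301). None was called by limma, 1 of 6 had an unadjusted p under 0.05, where 4.08% of all probe sets had such a p and 0.0615% were called. With replicates as a block within each temperature, limma called no probe set here and 27 between the genotypes at 4 °C in place of 140. No member was called in these comparisons with or without that block, and the cold responses were not fitted with it. The calls of EXPA4, EXPB3 and EXLA1 in wild type alone and of EXLA2 in sid2-1 alone are thus no evidence of a difference between the genotypes. The interval of each of the 6 genes includes a difference of 1 on the log2 scale.

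The 6 genes were then placed in their superfamily. Of 35 expansin and expansin-like genes listed, 18 have a probe set of their own, a further 4 lie in 2 shared probe sets, and 13 were not analysed here. Of the 12 others with a probe set of their own, 7 had a mean log2 signal under 4 in every group. Among these were EXPA7 and EXPA18, the expansins of root hairs, at 2.2 and at 2.23 to 2.54, and EXLA3, which neighbours EXLA1 in the genome, at 2.2 to 2.22. The same 7 include EXPA9 (2.38 to 2.99), EXPA20 (3.24 to 3.81), EXPA21 (2.32 to 2.7) and EXPB5 (2.2 to 2.21). The probe set shared by EXPA22 and EXP26 ranged from 2.3 to 2.72 and that shared by EXPA23 and EXPA25 from 2.51 to 3.1.

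**Figure D4:**
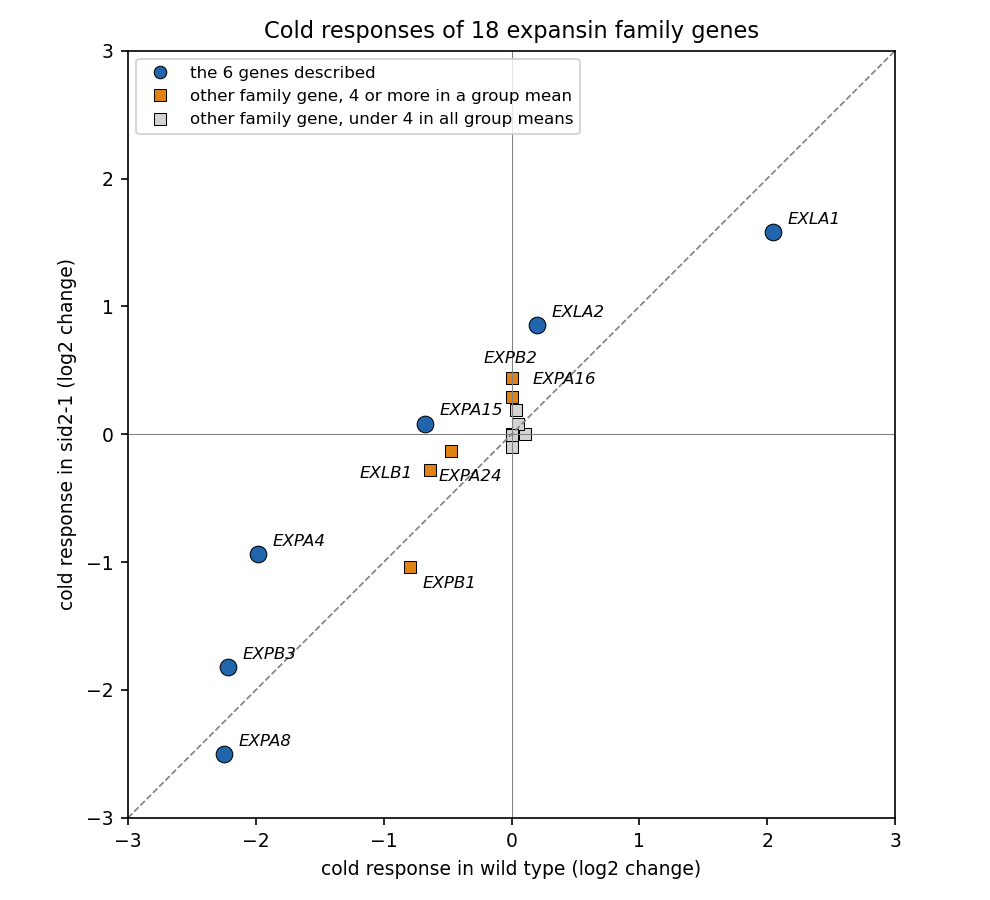
Cold response (log2 change) in wild type on the horizontal axis and in sid2-1 on the vertical axis for the 18 family genes with a probe set of their own. Circles are the 6 genes described, orange squares other genes with a group mean of 4 or more and grey squares those below it in every group. The dashed line marks equal responses. EXPA8, EXPB3 and EXPA4 lie at the lower left and EXLA1 at the upper right.

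The other 5 family genes reached a group mean of 4 or more, and none of them was called in any comparison, where no comparison called more than 20.5% of all probe sets. EXPB1, a β-expansin, ranged from 3.71 to 5.66 on the warm arrays and from 2.99 to 3.87 on the cold arrays. Its log2 change was -0.80 ± 0.41 (SE) in wild type and -1.04 ± 0.41 in sid2-1, and for the mean of both it missed the threshold at -0.92 ± 0.29 (adjusted p = 0.0578). EXLB1, the expansin-like B gene, changed by -0.64 ± 0.46 in wild type and by -0.28 ± 0.46 in sid2-1, and its highest value of 7.71 came from replicate 2 of sid2-1 at 4 °C. EXPA24 stood at -0.48 ± 0.18 in wild type (adjusted p = 0.128), EXPB2 at 0.44 ± 0.18 in sid2-1 (adjusted p = 0.198) and EXPA16 at 0.15 ± 0.26 for the mean of both. EXPB2 was read at 3.82 on 6 of the 12 arrays. Over the 18 genes 4 were called in wild type, 2 in sid2-1 and 5 for the mean of both, all of them among the 6, beside 13%, 6.28% and 20.5% of all probe sets. Their median log2 change was 0.00 in each case.

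Other enzymes and proteins of the cell wall were read as background. Of 29 listed xyloglucan endotransglucosylase/hydrolases, which cut and rejoin xyloglucan, 10 were measured and none was called in any comparison. No comparison called more than 20.5% of all probe sets, so a count of none among 10 says little. The median log2 change of the 10 was 0.08 in wild type and 0.02 in sid2-1. XTH32 stood at -1.09 ± 0.43 (SE, adjusted p = 0.119) and XTH33 at 0.96 ± 0.31 (adjusted p = 0.0623) for the mean of both genotypes. Of 13 genes of cellulose synthesis only COB was measured, a membrane-anchored protein that orients cellulose deposition. COB fell in wild type by 0.80 ± 0.16 on the log2 scale (adjusted p = 0.0132) and stood at -0.22 ± 0.16 in sid2-1.

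Of 7 genes of xyloglucan synthesis and trimming only CSLC04 was measured, at -0.24 ± 0.25 for the mean of both. Of 12 pectin genes 3 were measured, and for the mean of both genotypes 2 of them rose, where 10.5% of all probe sets did. ATPMEPCRB, a pectin methylesterase also named PME41, rose in wild type by 2.34 ± 0.40 (adjusted p = 0.00697) and stood at 1.08 ± 0.40 in sid2-1 (adjusted p = 0.163). AT3G49220 rose by 0.60 ± 0.18 (adjusted p = 0.0451) for the mean of both, a call that held in 2 of the 12 fits without 1 array (highest adjusted p = 0.0968), those without replicate 3 of wild type at 22 °C or replicate 2 of wild type at 4 °C. Listed plasma membrane proton pumps, aquaporins, growth hormone genes and xylem markers were not analysed here.

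A word search of the annotated names found 15 wall polysaccharide genes outside the expansins and the xyloglucan endotransglucosylase/hydrolases, among them COB, CSLC04 and ATPMEPCRB again. In wild type 4 of the 15 fell and 1 rose, where 6.19% and 6.81% of all probe sets did, and their median log2 change was -0.18 against 0.00 over all probe sets. CSLA01, of the family of mannan synthases, fell in wild type (adjusted p = 0.00424) and in sid2-1 (adjusted p = 0.00182). Its mean log2 signal went from 6.08 to 2.99 in wild type and from 7.41 to 3.13 in sid2-1, where all 3 cold arrays read 3.13. The cold values are low and recur, so the size of the fall depends on the background correction and no fold is given. CSLC5, of the family of xyloglucan backbone synthases, fell by 2.18 ± 0.28 in wild type (adjusted p = 0.00226) and stood at -0.82 ± 0.28 in sid2-1 (adjusted p = 0.136). PME61, a pectin methylesterase, fell by 1.97 ± 0.35 in wild type (adjusted p = 0.00842) and stood at -0.82 ± 0.35 in sid2-1 (adjusted p = 0.231). The mean log2 signal of PME61 in wild type at 4 °C was 3.99, below the array medians of 4.39 to 4.47. The sizes of its fall and of its genotype difference at 4 °C may thus depend on the background correction. The differences of sid2-1 from wild type at 4 °C were 1.27 ± 0.28 for CSLC5 (adjusted p = 0.127) and 0.94 ± 0.35 for PME61 (adjusted p = 0.420), and neither was called. No gene of the 15 was called between the genotypes, where 0.0044% of all probe sets were called at 22 °C and 0.615% at 4 °C.

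Last, the genes whose levels ran most like each member over the 12 arrays were listed, out of 5156 other probe sets of 1 gene with an SD of at least 0.3. The measure is Pearson's correlation, given as a description, since the 12 arrays fall into groups and the genes share them. Genes picked for running like a member on these arrays will tend to share its changes and calls. The changes and calls given for them below therefore add no support. For EXPA8 they were AT1G72740 (0.956), HAT2 (0.953), a homeodomain transcription factor, SP1L3 (0.950), a SPIRAL1-like microtubule protein, AT4G10060 (0.947) and AT3G53100 (0.946). HAT2 fell in the cold by 1.91 on the log2 scale in wild type and by 2.45 in sid2-1, and all 5 were called lower in each genotype. The sid2-1 call of AT1G72740 (adjusted p = 0.0385) held in 2 of the 12 fits without 1 array (highest adjusted p = 0.0972), those without replicate 3 of the cold wild type or replicate 1 of the warm mutant. SP1L3 lost its call in wild type without replicate 2 of the cold wild type (adjusted p = 0.0522) and in sid2-1 without replicate 1 or 2 of the warm mutant (highest adjusted p = 0.0591).

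EXPB3 ran most like AT1G80170 (0.977), AT1G55360 (0.966), GH9B7 (0.960), a glycosyl hydrolase of family 9, AT4G13840 (0.960) and AT1G33170 (0.959). GH9B7 fell by 2.92 in wild type and stood at -1.53 in sid2-1 (adjusted p = 0.0774). EXPA4 ran most like AT1G12330 (0.965), AT1G68600 (0.952), AT2G18910 (0.952), AT2G03550 (0.950) and AT1G80940 (0.947). All 5 were called lower in wild type, where AT1G68600 fell by 3.16, and each had the smaller mean change in sid2-1. The choice by likeness to EXPA4 favours this pattern. AT1G12330 lost its wild-type call without replicate 2 or 3 of the warm wild type (highest adjusted p = 0.0564).

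EXLA1 ran most like VHA-A3 (0.940), a subunit of the vacuolar proton pump, WNK7 (0.922), a protein kinase, AT1G02460 (0.915), AT5G54970 (0.9003) and AT3G59350 (0.8995). VHA-A3 stood at 0.58 in wild type (adjusted p = 0.0516) and 0.55 in sid2-1 (adjusted p = 0.0909). EXPA15 ran most like AT5G19090 (0.944), AT1G29980 (0.922), YAB5 (0.910), a YABBY factor of leaf polarity, AT1G75710 (0.893) and AT5G58300 (0.882), of which none was called in the cold in either genotype. EXLA2 ran most like AT2G39670 (0.932), AT1G05210 (0.910), AT5G60710 (0.888), AT1G55690 (0.882) and AT4G15430 (0.879). The last of these rose by 1.56 in sid2-1 (adjusted p = 0.0213) and stood at 0.51 in wild type (adjusted p = 0.360), and none of the 5 was called in wild type. The sid2-1 call of AT4G15430 held in 7 of the 12 fits without 1 array and was lost without any warm mutant replicate or without replicate 1 or 2 of the cold mutant (highest adjusted p = 0.0656).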

How the data were processed

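The authors deposited log2 signals, 1 per probe set and array. They used GCRMA, per the submitters' processing notes, a method that corrects background from probe sequence, quantile-normalizes arrays and summarises probes, and limma, with no versions given. The set of arrays normalized together and a genome build are not given in the sources used here. Values run from 2.2 to 14.46 with 2 decimals, and 14.7% lie at 2.2. A fold against that value, or against a low value that recurs over arrays, depends on the background correction. There are no counts behind a signal, and precision is set by how many arrays a group has.

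From these values, 64 controls were left out and 22746 probe sets were fitted with limma 3.58.1 in R 4.3.3, with a mean for each of 4 groups over 12 arrays, 8 residual degrees of freedom and 0.609 prior ones. It gave 6 contrasts: the cold response by genotype and averaged, sid2-1 against wild type by temperature, and how the cold responses differed. P values are two-sided and adjusted by Benjamini-Hochberg over a contrast. Intervals are at 95%. Tables and plots used Python 3.11.15, pandas 2.3.3 and matplotlib 3.10.9, and the fit was tested on simulated data.

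Gene names came from the platform's annotation, an old one, for 14016 probe sets, of which 13513 have 1 gene and 503 several, while 8730 have none. The RefSeq table joined 13436 of the 13513 by Entrez number. Coordinates and sequences were not used here.

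Named genes were the 6 members, the other family genes with a probe set of their own, up to 4 called members of each list (or 2 where none was called), and the 5 genes most correlated with each member. Other genes named from the lists are marker checks. The members and lists were chosen with earlier results of these data known, and the list by annotated name after the annotation was seen. Alternatives were a fit of the compared groups alone, a replicate block, median centring, a further quantile normalization, a filter on dim probe sets (a mean under 4 in every group), an intensity trend with a robust prior, and leaving out each array. Same-numbered arrays of the genotypes deviated together within a temperature (correlations of 0.284 to 0.467 at 22 °C and 0.211 to 0.252 at 4 °C). Any pairing there rests on the data and not on the labels, and correlations of this size do not establish it. Across temperatures the 12 same-numbered pairs ran from -0.0476 to 0.371, with 8 of 12 at 0.1 or below. The highest of them, replicate 1 of warm wild type with replicate 1 of cold sid2-1, lay above all pairs within 4 °C. With a replicate block within each temperature, added after the data were seen, limma called 27 probe sets between the genotypes at 4 °C in place of 140. For the difference of the cold responses it called none in place of 14. No member was called in these comparisons with or without that block, and the cold response of each genotype was not fitted with it.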

Additional observations from a re-analysis of the deposited data

How the results depend on the processing

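The limits lie in 3 arrays a group, in the age of the cold plants and in low signals that recur. In fits of the compared groups alone, 1407 probe sets and 2 members (EXPA4 and EXPB3) were called in wild type in the cold in place of 2956 and 4, 376 and 0 in sid2-1 in place of 1428 and 2, 2 in place of 1 between genotypes at 22 °C, and 0 in place of 140 at 4 °C. With dim probe sets left out the counts were 2326 in sid2-1 with 4 members (EXPB3 and EXLA1 in addition), 0 between genotypes at 22 °C, 292 at 4 °C and 52 for the difference of the cold responses. Median centring left 0 between genotypes at 22 °C and brought EXPB3 in sid2-1 to an adjusted p of 0.0419. With a replicate block, no member was called in sid2-1 (EXPA8 adjusted p = 0.0556, EXLA2 0.0734), EXPA8 in wild type had 0.0536 and EXLA2 for the mean of both 0.0602, 0 probe sets were called between genotypes at 22 °C and 3 for the difference of the responses. The block changed no other call of a member. Same-numbered arrays correlated at -0.0476 to 0.371 across temperatures, so that pairing there is neither shown nor excluded. A block within each temperature gave 0 at 22 °C, 27 at 4 °C and 0 for the difference. With p under 0.05 and no adjustment, limma's counts were 689 at 22 °C, 2236 at 4 °C and 928 for the difference. Probe sets shared by 2 genes added no call. The causes of these changes were not tested. 

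Without 1 array each, the calls ran from 1865 to 2859 probe sets and 1 to 3 members in wild type, from 788 to 1457 and 0 to 1 in sid2-1, from 3870 to 4452 and 4 to 5 for the mean of both, from 0 to 20 between genotypes at 22 °C (0 members), from 84 to 281 and 0 to 1 at 4 °C, and from 0 to 70 for the difference of the responses (0 members). The signs that turned were all of values not called. Between genotypes at 22 °C they were EXPA4 (-0.025 to 0.46), EXPA8 (-0.0283 to 0.87) and EXLA1 (-0.36 to 0.13), and at 4 °C EXPA8 (-0.0733 to 0.69). The others were the cold response of EXPA15 in sid2-1 (-0.40 to 0.40) and the difference of the responses of EXPA8 (-0.62 to 0.32), EXPB3 (-0.20 to 0.71) and EXLA1 (-1.08 to 0.0017). Of such values of the members 371 kept sign and side of the threshold, 47 lost a call, 3 gained 1 and 11 turned sign. Counted as kept was the cold response of EXLA2 in wild type without replicate 2 of the warm wild type, which was 0 and so had no sign. Under the other alternatives 211 kept sign and side of the threshold, 8 lost a call and 3 gained 1. Of the other named genes' values without 1 array, 808 kept sign and side of the threshold, 80 lost a call and none turned sign.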
